A study of Mus musculus with 18 samples.

Results

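The cytosolic ribosomal proteins of bone marrow-derived macrophages (BMDMs) are described here. The genes were chosen by symbol alone, as every name made of Rpl or Rps and a number, with or without the endings a, l or x, together with Rplp0, Rplp1, Rplp2 and Rpsa. This gave 81 of the 25926 genes in the table, 50 of the large subunit and 31 of the small subunit. All 81 were found by their Ensembl identifier in GENCODE M21. RNA-seq was available for 18 samples in 3 groups of 6, all of BMDMs from C57BL/6 mice that had been differentiated for 7 days with M-CSF at 50 ng/mL and then cultured on a membrane (pore size 0.4 μm) over tubular epithelial cells (TECs) that came from kidneys of wild-type mice. In NC, the BMDMs received PBS and the TECs no crystals. In COM, the BMDMs received PBS and the TECs were COM-TECs, that is, exposed to calcium oxalate monohydrate crystals at 100 μg/mL for 24 h. In COM+Met, the BMDMs above COM-TECs received Met at 5 mM for 24 h. What Met stands for is not written out in the labels. Their general protocol can also be read as giving Met to the BMDMs of COM. The treatment recorded for each sample, PBS in COM, was followed here, and every comparison with COM rests on that reading. Met can therefore be compared only above COM-TECs. The labels give no age or sex of the mice and no batch, and they do not tell whether replicates were independent cultures or animals. A p-value here therefore reflects the variation among these libraries alone, and that variation may be technical.

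Ribosomal proteins coat the ribosomal RNAs and are made in nearly equal numbers, because each mature ribosome holds a single copy of almost every member. The exceptions are Rplp1 and Rplp2, which stand in pairs on Rplp0 in the lateral stalk that recruits the elongation factors. The messages of ribosomal proteins are among the most abundant of any cell. They begin with a run of pyrimidines at the transcription start (the TOP motif), through which the kinase complex mTORC1 and the RNA-binding protein Larp1 set their translation and stability, while Myc, RNA polymerase I and the nucleolar assembly factors act on the supply of ribosomes as a whole. In macrophages, growth in M-CSF goes with ribosome production.

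The sequence around the transcription start is what the members have in common beside their products, and 8 such stretches are printed because they stand at the extremes of the comparison of COM with NC. RefSeq promoters of 300 bases (GRCm38.p6) were given for 61 of the 81 members, in 73 entries, and the other 20 members are not shown. The first 4 are the members with an entry that were not called lower in COM, and the last 4 are those with the deepest falls. Each runs 5′ to 3′ on the strand of the gene, from 50 bases before the annotated start to 30 bases from the start on. Capitals mark the letters CGGAAG or their reverse complement CTTCCG, or an unbroken run of at least 8 C or T within 20 bases on either side of the start.
Rpl24 (chr16:55966225-55966304, + strand): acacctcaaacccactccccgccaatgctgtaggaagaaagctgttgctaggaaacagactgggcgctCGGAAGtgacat
Rpl22 (chr4:152325676-152325755, + strand): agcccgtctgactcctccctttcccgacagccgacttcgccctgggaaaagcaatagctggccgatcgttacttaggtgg
Rps27l (chr9:66946036-66946115, + strand): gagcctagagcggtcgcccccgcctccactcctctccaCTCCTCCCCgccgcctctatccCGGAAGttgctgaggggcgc
Rpl18 (chr7:45718021-45718100, + strand): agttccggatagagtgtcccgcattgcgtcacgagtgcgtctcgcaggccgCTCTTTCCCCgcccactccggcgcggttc
Rpl10a (chr17:28328421-28328500, + strand): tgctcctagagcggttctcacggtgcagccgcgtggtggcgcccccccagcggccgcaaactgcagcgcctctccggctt
Rps19 (chr7:24884542-24884621, + strand): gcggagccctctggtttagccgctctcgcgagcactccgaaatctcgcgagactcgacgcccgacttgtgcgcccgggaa
Rpl12 (chr2:32961662-32961741, + strand): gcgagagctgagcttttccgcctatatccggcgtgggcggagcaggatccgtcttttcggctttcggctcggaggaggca
Rpl13 (chr8:123102300-123102379, + strand): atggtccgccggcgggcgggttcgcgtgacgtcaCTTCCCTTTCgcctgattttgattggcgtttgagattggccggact

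Over the whole 300 bases, 42 of the 61 member genes (68.9%) held CGGAAG on either strand in at least 1 entry, where 18.8% of the 27025 genes with a promoter in the table did. A run of at least 8 C or T within 20 bases of the start was found in 30 of 73 member entries (41.1%) and in 16.0% of all 32851 entries. Neither pattern separated the printed ends of the range. Of the 4 members with the deepest falls, Rpl13 held the run near its start and Rpl12 held CGGAAG or its reverse complement outside the printed stretch. Of the 4 that were not called lower, Rps27l held both, Rpl24 the hexamer and Rpl18 the run. These are matches of letters only. The marked runs of Rpl13 and Rps27l ended before the annotated start, and that of Rpl18 began after it. A marked run is therefore not the same as a TOP motif. Where several starts were listed for a gene, the first was printed.

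The authors deposited FPKM, that is, mapped fragments scaled to gene length and to the total of each sample. FPKM sums ran from 380731 to 449186 per sample, and the read depth is unknown. The samples of COM fell into sets that the labels do not name: COM-1 to COM-3 lay together, COM-4 and COM-5 lay together, and COM-6 stood apart from both. Mitochondrially encoded genes took 11.6% of the summed FPKM in COM-6, 4.47% to 5.18% in the other COM samples, 6.42% to 7.82% in NC and 5.01% to 5.98% in COM+Met. The BMDM markers summed to 11080 to 15610 FPKM in NC, 10600 to 14290 in COM and 12310 to 17050 in COM+Met, and all 8 were above 0 in every sample. Lyz2 made up most of this sum, at 8531 to 14540 FPKM. Some of the other BMDM markers moved with the groups. Adgre1 had 98.6 to 119.8 FPKM in NC, 518 to 669 in COM and 493.2 to 634 in COM+Met. Fcgr1 had 6.93 to 9.17, 46.6 to 149 and 47.1 to 69.6 FPKM, and Cd14 had 19.7 to 116, 225.5 to 503 and 358 to 403. NC lay below both other groups in all 3 genes. Lyz2, Csf1r, Cd68, Itgam and Mertk did not separate NC from COM. Mertk had 10.53 to 31.45 FPKM in NC, 8.62 to 11.73 in COM and 8.75 to 16.05 in COM+Met. Itgam had 155.9 to 378.4, 186 to 360 and 141.2 to 159.3 FPKM. Of 12 markers of tubular epithelial cells, 10 stayed below 1 FPKM in every sample, and the summed level was 10.95 to 18.2 FPKM in NC, nearly all of it from Cdh1, 0.490 to 1.37 in COM and 0.0575 to 0.332 in COM+Met. The 10 neutrophil markers summed to 395 to 597 FPKM in NC, 34.2 to 330 in COM and 19.5 to 45.5 in COM+Met. The 7 fibroblast markers summed to 14.4 to 60.4, 4.61 to 36.7 and 2.33 to 7.33 FPKM. Within COM the neutrophil markers summed to 307 to 330 FPKM in COM-1 to COM-3 and to 34.2 to 67.5 in COM-4 to COM-6. S100a8 made up most of the sum in COM, at 28.4 to 301 FPKM, so this split was mainly one of S100a8. S100a9 had 113.6 to 259.2 FPKM in NC and 1.336 to 17.81 in COM, and Ngp had 13.45 to 48.42 and 0.2539 to 3.412. Camp overlapped, with 1.742 to 6.939 FPKM in NC and 2.574 to 10.16 in COM. Against the sum of its list, the fibroblast marker Pdgfrb was at 0.482 to 1.498 FPKM in NC, 2.25 to 7.04 in COM and 2.26 to 4.11 in COM+Met. Some markers of each of the 4 kinds of cell, mainly Cdh1 for tubular epithelial cells, thus moved with the groups. The part of these markers in the results below was not tested.

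Together the 81 genes took 5.56% to 6.08% of all FPKM in NC (median 6.03%), 1.43% to 3.28% in COM (median 2.71%) and 2.81% to 3.20% in COM+Met (median 2.92%). Every COM and every COM+Met sample lay below every NC sample. Within COM the share was 3.12%, 3.26% and 3.28% in COM-1 to COM-3, 2.22% and 2.30% in COM-4 and COM-5 and 1.43% in COM-6. The COM+Met samples were all above COM-4 to COM-6 and overlapped with COM-1 to COM-3. FPKM is a share of each sample, and a lower share in bulk RNA does not tell fewer cells of a kind from less RNA per cell. The large subunit summed to 1.46 to 1.52 times the small subunit in NC, 1.42 to 1.64 times in COM and 1.49 to 1.58 times in COM+Met. The ratio was above every NC sample in COM-1 to COM-3 and COM-5 and in most COM+Met samples, and lowest in COM-6.

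**Figure D1:**
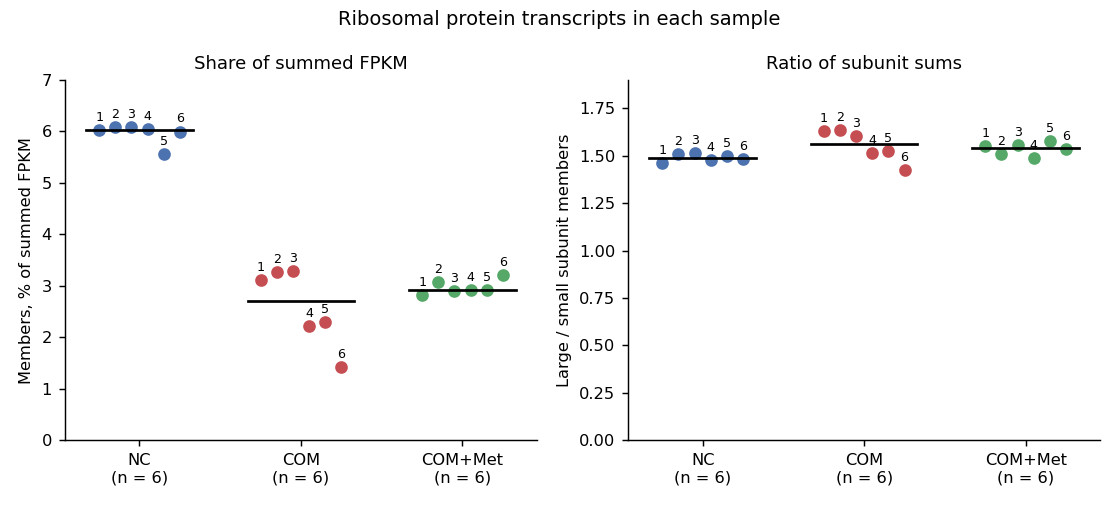
Share of the summed FPKM taken by the 81 ribosomal protein genes (left, %) and ratio of summed large to summed small subunit members (right) in each sample. Points are samples with their replicate numbers and bars are medians of 6. The NC samples lie between 5.56% and 6.08%, above all others, and the COM samples fall into 3 steps down to 1.43% in COM-6.

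COM was compared with NC to ask what coculture above COM-TECs does to these messages in BMDMs. The comparison used limma on log2(FPKM + 1) over genes whose mean reached 1 FPKM, a scale that understates the change of low genes, and a gene was called at a Benjamini-Hochberg adjusted p below 0.05 over all genes tested. Of the 81 genes, 78 passed the filter in each comparison, and Rpl3l, Rpl10l and Rpl39l did not. In COM, 73 of the 78 members were called lower (93.6%) and 0 higher, 44 of the large and 29 of the small subunit, where 40.6% of the 10900 genes tested were called lower and 12.7% higher. With unadjusted p below 0.05, 76 members were lower and 0 higher, a count that was not made over all genes. The fall reached 2-fold in 64 members (82.1%), against 11.7% of all genes, and 0 members rose by 2-fold, against 5.99%. In 70 members (89.7%) every COM sample lay below every NC sample, against 29.7% of all genes, and in 0 members every COM sample was higher, against 8.6%.

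The median log2 fold change of the members was -1.30, that is 2.46-fold lower, where the median of all genes was -0.27. The members also moved more alike than genes at large, with a standard deviation of the log2 fold change of 0.41 across the 78 members and 0.91 across all genes. The median was -1.27 over the 47 large subunit members tested and -1.41 over the 31 of the small subunit. After division by median-of-ratios size factors, which brought the median of all genes to 0.0048 and changed the shares called lower and higher to 23.7% and 23.5%, 71 members were called lower and 1 higher, and their median was -0.98. Relative to the median of all genes, the members were thus lower by -1.03 on the values as deposited and by -0.99 with the size factors. The number of members lower by 2-fold was 38 with the size factors, and the share of all genes at 2-fold is not given for that setting.

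**Figure D2:**
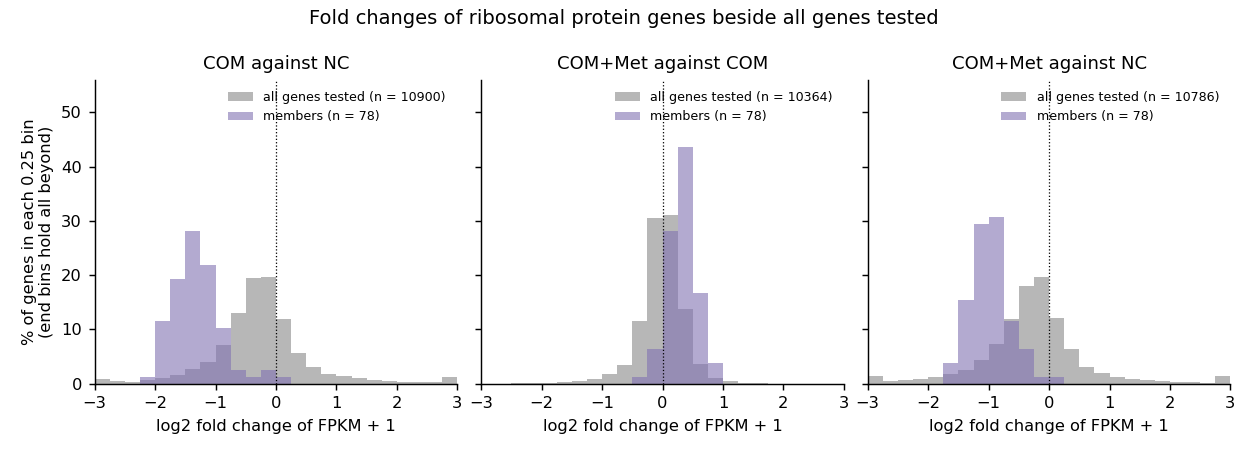
Log2 fold changes of FPKM + 1 for the 78 ribosomal protein genes tested and for all genes tested, as % of genes in each bin of 0.25, in 3 comparisons. The members' median is -1.30 in COM against NC, 0.31 in COM+Met against COM and -0.99 in COM+Met against NC, where the medians of all genes are -0.27, 0.0033 and -0.26.

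The level in COM depended on the sample. In 69 of the 78 members the 3 lowest COM values were those of COM-4 to COM-6. Leaving these 3 samples out kept 72 members called lower and called 1 higher, beside 36.6% and 17.7% of all genes. The members' count at 2-fold became 29, for which the share of all genes is not given. Their median became -0.94, where the median of all genes was -0.14. In COM-1 to COM-3 alone, 72 members lay below every NC sample. Counts of sample order, here and for COM-6 below, were not made over all genes. COM-6 was the lowest COM sample for 71 members, and its log2 level differed from the median of COM-1 to COM-5 by -1.31 at the median member. This difference was far from even. It was -3.73 for Rps14, an assembly protein of the small subunit platform, with 15.6 FPKM in COM-6 and 151 or more in the other COM samples. It was 0.62 for Rps26, which lies at the exit of the messenger RNA channel and had 294 FPKM in COM-6 and 133 to 196 in the other COM samples. Rps14 and Rps26 were chosen after their values were seen, as the ends of this range. Across the 78 members, which share these libraries, the difference of COM-6 had a Pearson r of -0.35 with GC content, 0.11 with log2 transcript length and -0.25 with log2 NC level. The members' log2 fold changes also went with GC content, with r of -0.34 in COM against NC and 0.40 in COM+Met against COM. In COM+Met against NC it was -0.16. The standard deviation across members of the log2 ratio to NC was 1.00 in COM-6, 0.35 to 0.46 in the other COM samples, 0.32 to 0.41 in COM+Met and 0.11 to 0.17 in NC.

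**Figure D3:**
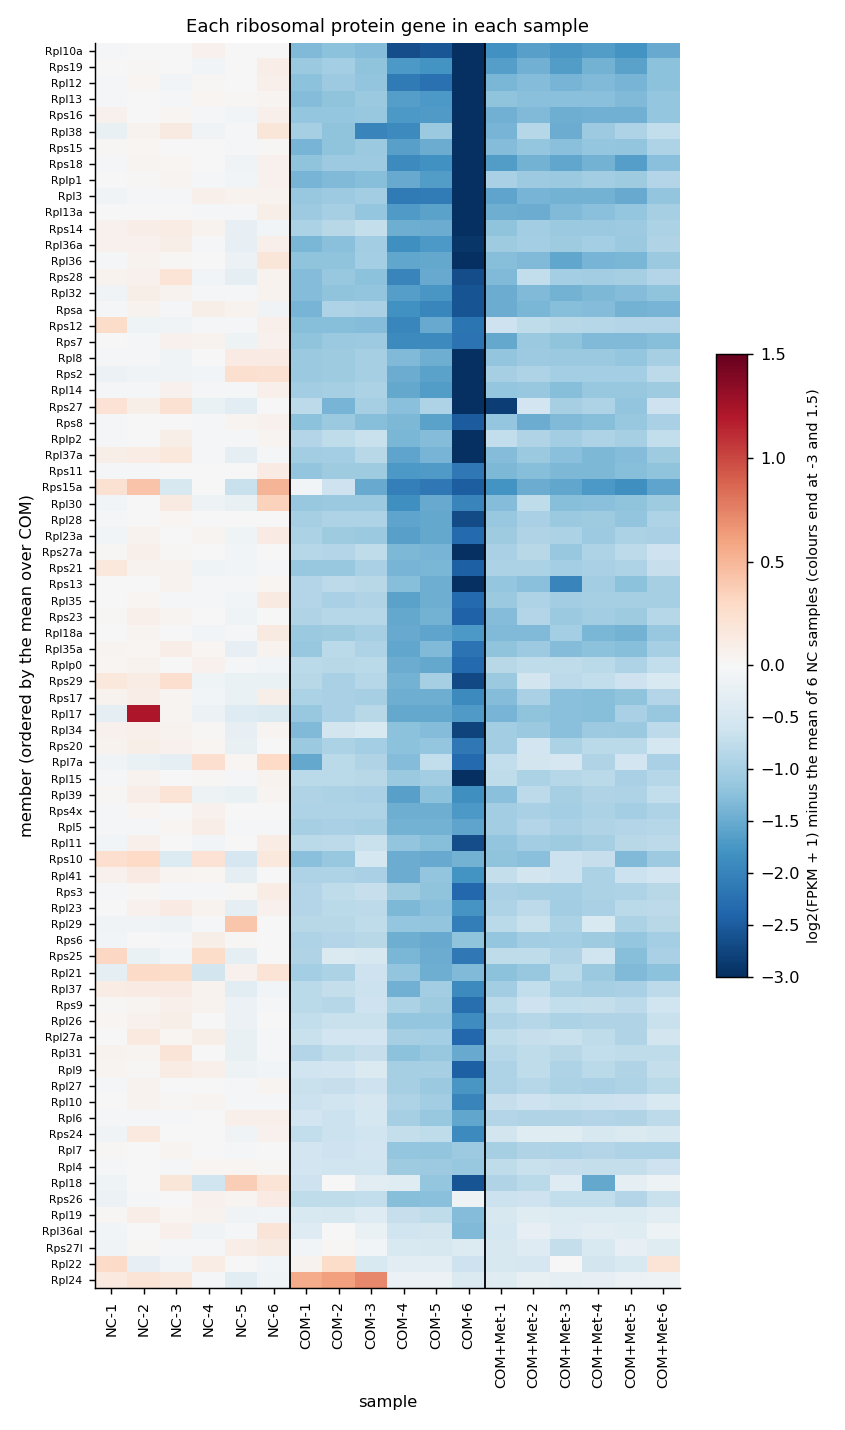
Log2(FPKM + 1) of 77 of the 78 members tested (rows, ordered by their mean over COM) in each of 18 samples (columns), minus the mean of the 6 NC samples. Blue is lower and red higher, with colours ending at -3 and 1.5. Nearly all rows are blue in COM and COM+Met, COM-6 is the darkest column, and the lowest rows (Rps27l, Rpl22 and Rpl24) stay pale or turn red in some samples.

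The most abundant members were Rplp0, Rplp1, Rpl41 and Rpl19 by mean FPKM over the 18 samples. By the median of a single group the order differed, and Rpl19 was in place 8 in NC, 2 in COM and 5 in COM+Met. Rplp0, the base of the stalk, had 785 to 864 FPKM in NC (median 834), 164 to 472 in COM (median 380) and 437 to 498 in COM+Met (median 479.5). All COM and COM+Met samples lay below NC, and the log2 fold change in COM was -1.30 (SE 0.23, limma adjusted p = 0.00058). Its partner Rplp1 was at 834 to 925 FPKM in NC, 74.5 to 362 in COM and 408 to 481 in COM+Met, so that here the 3 groups did not overlap at all. Its log2 fold change in COM was -1.79 (SE 0.33, limma adjusted p = 0.00061). Rplp2, the other stalk partner, had 221 to 242 FPKM in NC, 12.9 to 143 in COM and 110.1 to 137 in COM+Met, and was lower in COM by -1.51 on the log2 scale (SE 0.47, limma adjusted p = 0.016, and 0.052 without NC-5 and NC-6). Rpsa, which binds the small subunit and also serves as a laminin receptor, had 491 to 562 FPKM in NC, 86.4 to 279 in COM and 189 to 217 in COM+Met.

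Rpl41, the smallest ribosomal protein, had 562 to 739 FPKM in NC (median 696), 194 to 355 in COM (median 322) and 352 to 461 in COM+Met (median 432). COM lay below NC throughout, by -1.22 on the log2 scale (SE 0.16, limma adjusted p = 5.46e-05), and COM+Met overlapped with COM. Rpl19, a large subunit protein that takes part in a bridge between the subunits, changed less, with 504 to 586 FPKM in NC, 220.4 to 415 in COM and 393 to 434 in COM+Met. The log2 fold change in COM was -0.68 (SE 0.15, limma adjusted p = 0.0022).

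The 3 largest falls in COM were those of Rpl10a, Rps19 and Rpl12. Rpl10a, part of the mobile stalk beside the exit site for transfer RNA, had 344 to 368 FPKM in NC, 139.6, 149 and 143 in COM-1 to COM-3, 54.99 and 58.3 in COM-4 and COM-5 and 24.2 in COM-6, and 98.6 to 122 in COM+Met. It was lower in COM by -2.15 on the log2 scale (SE 0.38, limma adjusted p = 0.00053). Rps19, a small subunit protein whose gene is mutated in Diamond-Blackfan anaemia, had 257 to 293 FPKM in NC, 9.52 to 135 in COM and 85.2 to 117 in COM+Met. It was lower in COM by -1.92 (SE 0.51, limma adjusted p = 0.0069), and by -1.37 without COM-6, whose value was the lowest. Rpl12, at the foot of the lateral stalk, had 208 to 233 FPKM in NC, 18.1 to 103 in COM and 82.9 to 94.0 in COM+Met, with a log2 fold change in COM of -1.90 (SE 0.35, limma adjusted p = 0.00065). The groups NC and COM did not overlap for any of the 3.

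Members with roles away from the ribosome followed the others, apart from Rpl22. Rpl5 and Rpl11, which bind and inhibit Mdm2 when free of ribosomes, were lower in COM by -1.23 and -1.23 on the log2 scale (limma adjusted p = 5.73e-06 and 0.0027). Rpl5 had 193 to 212 FPKM in NC, 65.8 to 99.6 in COM and 96.1 to 109 in COM+Met. Rps3, which also partners NF-kappa B in the nucleus, had 237 to 267 FPKM in NC, 47.5 to 153 in COM and 122 to 137 in COM+Met, and its log2 fold change in COM was -1.16 (limma adjusted p = 0.0013). Rpl13a, which leaves the ribosome to restrain the translation of inflammatory messages in interferon-treated myeloid cells, had 554 to 611 FPKM in NC, 39.5 to 287 in COM and 206 to 291 in COM+Met, with -1.73 in COM (limma adjusted p = 0.0027). Rps6, the substrate of the S6 kinases below mTORC1, had 492 to 548 FPKM in NC, 180.4 to 290 in COM and 230.4 to 255 in COM+Met, with -1.14 in COM (limma adjusted p = 2.78e-05).

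Rpl24, Rps27l, Rpl22 and Rpl18 were among the 5 members not called lower in COM. Rpl24 and Rpl18 are named because of this, after their values were seen. Rpl24, part of a bridge between the subunits, had 242 to 354 FPKM in NC, 452, 472 and 507 in COM-1 to COM-3, 226 to 274 in COM-4 to COM-6 and 240.0 to 276.5 in COM+Met. The first 3 COM samples were therefore above every NC sample and the last 3 were within the NC range or below it. Its log2 fold change in COM was 0.18 (SE 0.21, limma adjusted p = 0.48), and it became 0.50 with median-of-ratios size factors (adjusted p = 0.018) and 0.63 without COM-4 to COM-6 (adjusted p = 0.0019), where Rpl24 was the member called higher.

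Rps27l, a paralog of Rps27 that p53 induces, had 67.4 to 79.7 FPKM in NC, 51.8 to 73.6 in COM and 43.9 to 61.3 in COM+Met (log2 fold change in COM -0.24, limma adjusted p = 0.081). Rpl22, which is dispensable for translation in most cells but needed for lymphocyte development, had 58.6 to 84.9 FPKM in NC, 44.5 to 84.3 in COM and 47.2 to 79.9 in COM+Met (log2 fold change in COM -0.24, limma adjusted p = 0.21). With median-of-ratios size factors the values of Rps27l and Rpl22 became 0.071 and 0.077, while Rps27l was called lower under 3 of 26 alternatives (adjusted p of 0.041 or more). Rpl18, a core protein of the large subunit, ranged widely inside groups, from 157 to 306 FPKM in NC, 38.4 to 238 in COM and 81.0 to 214 in COM+Met (log2 fold change in COM -0.84, limma adjusted p = 0.069). It was called lower under 3 of 26 alternatives, at adjusted p of 0.035 or more.

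**Figure D4:**
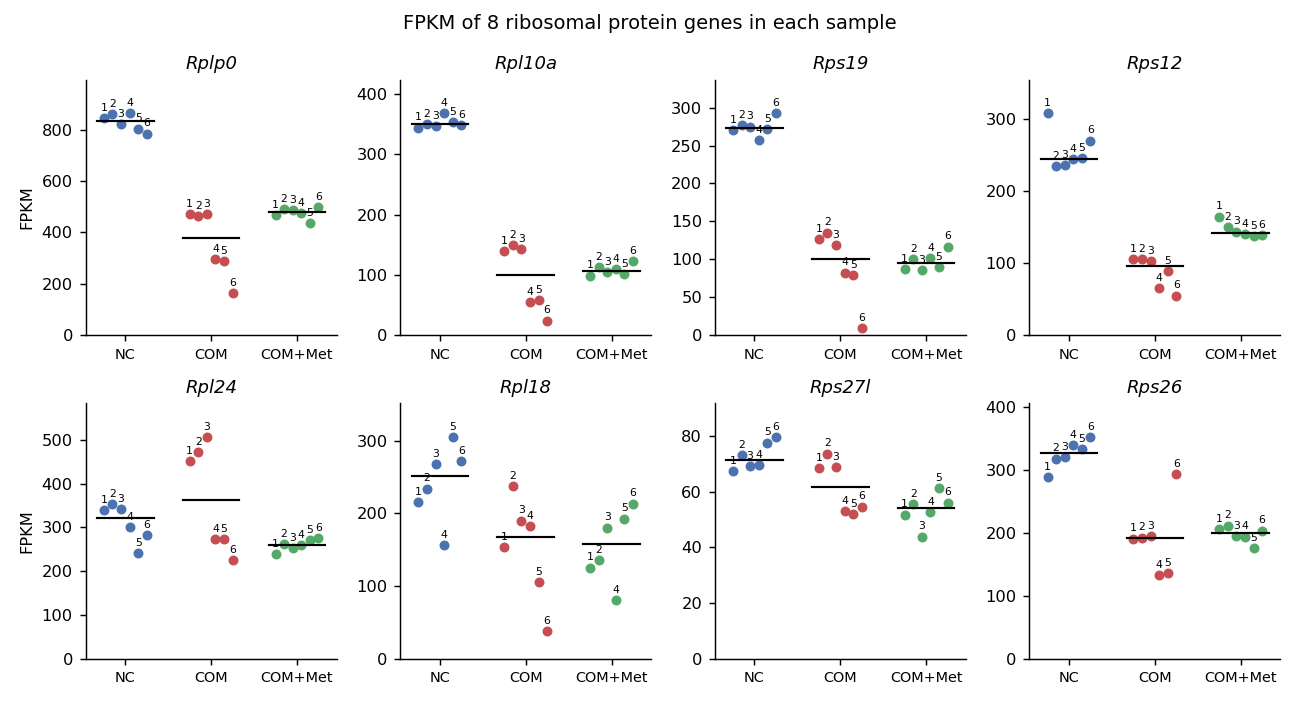
FPKM of Rplp0, Rpl10a, Rps19, Rps12, Rpl24, Rpl18, Rps27l and Rps26 in each of 18 samples, with replicate numbers beside the points and a bar at the median of each group of 6. In Rplp0, Rpl10a, Rps19 and Rps12 all COM samples are below NC, Rpl24 is high in COM-1 to COM-3, the groups overlap in Rpl18, and Rps26 is high in COM-6.

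Members with a paralog among the members were read side by side. Rpl3, a core protein near the peptidyl transferase centre, had 385 to 435 FPKM in NC, 48.0 to 199 in COM and 136 to 180 in COM+Met (log2 fold change in COM -1.76, limma adjusted p = 0.00043), while its muscle paralog Rpl3l reached at most 0.313 FPKM in any sample. Rpl10 had 490 to 529 FPKM in NC, 129 to 358 in COM and 314 to 371 in COM+Met (-0.95 in COM, limma adjusted p = 0.0024), and its testis paralog Rpl10l was listed at 0 in all 18 samples. Rpl39 was at 97.1 to 129.6 FPKM in NC, 30.6 to 59.8 in COM and 46.5 to 67.2 in COM+Met (-1.25 in COM, limma adjusted p = 6.14e-05), and Rpl39l at 0.493 to 1.54 FPKM in NC and 0.1197 to 0.576 in COM. Rps27 had 186 to 274 FPKM in NC, 16.6 to 136 in COM and 32.3 to 156 in COM+Met, and its log2 fold change in COM was -1.52 (limma adjusted p = 0.0082), where Rps27l was not called. Rpl36a had 173 to 219 FPKM in NC and 26.6 to 99.9 in COM (-1.69 in COM, limma adjusted p = 0.00016), while Rpl36al had 112 to 137 and 47.2 to 119 (-0.51 in COM, limma adjusted p = 0.032, lost under 10 of 26 alternatives at adjusted p of up to 0.25). The difference between the partners of a pair was not tested. Rps4x, on the X chromosome, had 510 to 551 FPKM in NC and 159 to 278 in COM (-1.24 in COM, limma adjusted p = 2.94e-05), and Rps4l is not analysed here. Ribosomal protein genes have processed pseudogene copies that can take or lend reads, and 7 such copies are listed in the same table. Rps12-ps3 had 304 to 427 FPKM in NC, 81.0 to 204 in COM and 204 to 256 in COM+Met, with medians above those of Rps12 itself, so the level of Rps12 in particular is uncertain, and how the authors' counting shared reads among copies is not given in the sources used here.

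COM+Met was compared with COM to ask what Met adds above COM-TECs. Here 2 of the 78 members were called higher (2.56%) and 0 lower by limma, where 5.77% of the 10364 genes tested were called higher and 7.58% lower. With unadjusted p below 0.05, 12 members were higher and 1 lower, a count that was not made over all genes. At 2-fold, 0 members were called in either direction, beside 0.608% of all genes higher and 1.61% lower. The median log2 fold change of the members was 0.31, with 72 of 78 above 0, and that of all genes was 0.0033. This sign rested on COM-4 to COM-6. In 61 members every COM+Met sample was above these 3, and in 16 members every COM+Met sample was below COM-1 to COM-3. In 44 members all COM+Met samples lay inside the range of COM. These counts were not made over all genes. Without COM-4 to COM-6 the median was -0.13, with 7 members called higher and 28 lower. Of all genes, 17.8% were then called higher and 43.4% lower, with a median of -0.13. With limma's sample weights the members' median was -0.11, with 11 higher and 20 lower. Over all genes it was -0.12, with 19.7% higher and 44.8% lower. Without COM-6 alone the members' median was 0.085, with 8 members higher and 1 lower. The median of all genes was then -0.041, with 10.6% higher and 15.9% lower.

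Rps12 and Rpl41 were the members called higher in COM+Met. Rps12, a protein of the small subunit beak, had 235 to 309 FPKM in NC, 54.9 to 106 in COM and 138 to 165 in COM+Met, so that COM+Met lay above COM and below NC in every sample. The log2 fold change against COM was 0.78 (SE 0.16, limma adjusted p = 0.0079), and it stayed between 0.47 and 0.84 and called under each of 25 alternatives. Rpl41, with the values given above, rose against COM by 0.54 (SE 0.15, limma adjusted p = 0.037), and the call was lost under 9 of 25 alternatives, at adjusted p of up to 0.086. Rplp1 and Rps24 (chosen after its values were seen) also had every COM+Met sample above every COM sample, which was so for 3 members (3.85%) and for 5.83% of all genes, while every COM+Met sample was lower in 0 members and in 5.34% of all genes. They were not called, with log2 fold changes of 0.76 and 0.45 (limma adjusted p = 0.14 and 0.15). Rps24, a small subunit protein, had 206 to 246 FPKM in NC, 58.7 to 146 in COM and 151 to 173 in COM+Met. Rplp0 and Rpl19 had log2 fold changes against COM of 0.50 and 0.28 (limma adjusted p = 0.18 and 0.21). Rpl24 had -0.43 (limma adjusted p = 0.17).

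COM+Met was also set against NC, a comparison that shares its samples with the other comparisons. In COM+Met 76 of 78 members were called lower (97.4%) and 0 higher by limma, where 55.9% of the 10786 genes tested were called lower and 19.3% higher. The fall reached 2-fold in 38 members (48.7%), against 13.6% of all genes, and 0 members rose by 2-fold (5.66% of all genes). With median-of-ratios size factors 10 members fell by 2-fold, and the share of all genes is not given for that setting. In 74 members (94.9%) every COM+Met sample lay below every NC sample, against 43.6% of all genes, and in 0 members every sample was higher, against 14.1%. The median log2 fold change was -0.99, and that of all genes -0.26, or -0.67 and 0.011 with median-of-ratios size factors. The COM+Met samples lay close together, with a standard deviation of the member share of 0.143 percentage points against 0.744 in COM and 0.202 in NC. The 3 largest falls were those of Rpl10a, Rps15a and Rps19, at -1.70, -1.66 and -1.5003 (limma adjusted p = 2.87e-11, 3.45e-06 and 1.37e-09). Rps15a, a small subunit protein, varied within groups, with 44.9 to 103 FPKM in NC, 12.1 to 68.2 in COM and 19.3 to 25.1 in COM+Met. Rpl22 was not called, at -0.30 (limma adjusted p = 0.058). Rpl24 was called lower at -0.24 (limma adjusted p = 0.022), but was 0.071 with median-of-ratios size factors.

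The rest of the translation machinery was read from lists written by hand. Of 7 ribosomal proteins that the symbol rule leaves out, 6 were called lower in COM and 0 higher by limma, with a median log2 fold change of -1.24. They include Fau, which encodes a ribosomal protein fused to a ubiquitin-like moiety, and Rack1, a scaffold on the small subunit. Fau had 494 to 657 FPKM in NC, 87.0 to 361 in COM and 263 to 330 in COM+Met. Rack1 had 393 to 420 FPKM in NC, 68.9 to 221 in COM and 201 to 223 in COM+Met. The largest fall was that of Rpl22l1, the paralog of Rpl22, from 23.7 ± 3.84 FPKM in NC to 9.32 ± 5.36 in COM (SD, n = 6; log2 fold change -1.43, limma adjusted p = 0.0021), and to 6.61 ± 2.68 in COM+Met.

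Of 15 elongation factors and other TOP messages, 13 were called lower in COM and 0 higher, with a median of -0.97. Eef1b2, an exchange factor for Eef1a, had the largest fall, from 77.8 ± 2.86 to 24.9 ± 6.60 FPKM (SD, n = 6; log2 fold change -1.65, limma adjusted p = 5.07e-06). In COM+Met, Nap1l1, a histone chaperone with a TOP message, fell furthest against NC (-1.41) and Eef1e1, which belongs to the aminoacyl-tRNA synthetase complex, rose (0.49). Eef1g, another Eef1 subunit, rose against COM, from 55.9 ± 9.05 to 75.9 ± 1.35 FPKM (SD, n = 6; log2 fold change 0.45, limma adjusted p = 0.020). With median-of-ratios size factors 11 of the 15 were lower in COM and 1 higher.

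The other lists stood nearer to the background of 40.6% lower and 12.7% higher. With median-of-ratios size factors the background was 23.7% lower and 23.5% higher. Of 36 initiation factors, 17 were called lower (47.2%) and 3 higher in COM by limma, and 7 and 8 with median-of-ratios size factors. Eif3k fell furthest, at -1.14, and Eif4e, the cap-binding protein, rose from 14.0 ± 1.81 to 21.3 ± 4.46 FPKM (SD, n = 6; log2 fold change 0.56, limma adjusted p = 0.0029), with no overlap of the groups. In COM+Met, Eif4a1 rose against COM (0.28, limma adjusted p = 0.030, lost under 10 of 25 alternatives), and against NC Eif4a2 rose (0.56) and Eif3f fell (-0.95).

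Of 59 ribosome biogenesis factors, 39 were called lower (66.1%) and 1 higher in COM. With median-of-ratios size factors 17 were lower (28.8%) and 4 higher (6.78%), beside 23.7% and 23.5% of all genes. Nhp2, of the ribonucleoproteins that make pseudouridine, had the largest fall (-1.32, limma adjusted p = 0.0025), and Sbds, which frees new large subunits for use, was the factor called higher (0.37, limma adjusted p = 0.0068). Against COM, 12 of the 59 were called higher in COM+Met (20.3%, beside 5.77% of all genes) and 0 lower, and Nop10, a partner of Nhp2, had the largest rise, from 7.71 ± 1.67 to 13.9 ± 0.719 FPKM (SD, n = 6; log2 fold change 0.80, limma adjusted p = 0.0015). The count against COM was 24 without COM-6, 7 without COM+Met-1, COM+Met-3, COM+Met-4 or COM+Met-5, 6 with replicate number as a block and 22 with GC content and length removed. With sample weights it was 28 higher and 6 lower, and without COM-4 to COM-6 it was 25 higher and 6 lower. Of all genes, 19.7% were higher and 44.8% lower with the weights, and 17.8% and 43.4% without COM-4 to COM-6. The share of all genes called higher was 10.6% without COM-6, 2.78% with the block and 8.16% with GC content and length removed. Against NC, Wdr43 rose (0.37) and Gar1 fell (-0.89) in COM+Met. Of 16 RNA polymerase I genes, 9 were called lower in COM and 0 higher, but 1 lower with median-of-ratios size factors and 5 without NC-5 and NC-6. This was led by Ubtf, the factor that opens ribosomal DNA, at 34.9 ± 1.59 FPKM in NC, 12.5 ± 2.14 in COM and 11.8 ± 2.14 in COM+Met (SD, n = 6; log2 fold change in COM -1.43, limma adjusted p = 1.04e-06). Tcof1, the treacle protein of the nucleolus, rose against COM in COM+Met (0.43, limma adjusted p = 0.0022).

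Of 29 regulators around mTORC1 and Myc, 15 were called lower in COM and 2 higher, and 9 and 4 with median-of-ratios size factors. The largest fall was that of Myc itself, with 9.56 to 14.7 FPKM in NC, 0.128 to 0.531 in COM and 0.365 to 0.801 in COM+Met. Its log2 fold change was -3.20 in COM and -3.03 in COM+Met against NC (limma adjusted p = 2.31e-09 and 5.19e-11), with no overlap of NC with either group. Mxd1, an antagonist of Myc at Max, rose in COM from 9.50 ± 0.986 to 17.5 ± 6.51 FPKM (SD, n = 6; log2 fold change 0.74, limma adjusted p = 0.0077). Other antagonists on the list did not rise in COM. Mnt was called lower (-0.73, limma adjusted p = 0.0064) and Mxi1 was not called (-0.42, limma adjusted p = 0.20). Larp1, the binding protein of TOP messages, was the other gene called higher in COM (0.43, limma adjusted p = 0.0077). It rose in COM+Met against NC too (0.56, limma adjusted p = 6.62e-05) and was not called against COM (0.14, limma adjusted p = 0.27). Of 28 regulators tested in COM+Met against COM, 1 was called higher (3.57%) and 3 lower (10.7%), beside 5.77% and 7.58% of all genes. Their median was -0.022. Mxi1 and Rps6kb1 were called lower, at -0.97 and -0.45 (limma adjusted p = 0.019 and 0.015). Against COM, Rragd, a GTPase that anchors mTORC1 to lysosomes, rose in COM+Met from 1.06 ± 0.316 to 3.29 ± 0.229 FPKM, and Ddit4, an inhibitor of mTORC1, fell from 8.12 ± 3.84 to 3.06 ± 0.911 (SD, n = 6; log2 fold changes 1.07 and -1.06, limma adjusted p = 8.22e-05 and 0.032, the second lost under 10 of 25 alternatives).

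The 78 mitochondrial ribosomal proteins, which build a separate ribosome from nuclear genes, were the nearest counterpart by function. In COM 27 were called lower (34.6%) and 5 higher by limma, with a median log2 fold change of -0.34, or 9 lower and 11 higher with median-of-ratios size factors and a median of -0.034. Without NC-5 and NC-6 the counts were 13 lower and 3 higher, with replicate number as a block 17 and 3, and with single samples left out 19 to 30 lower and 2 to 7 higher, the 2 without NC-1 or NC-4. Mrpl33 fell furthest, from 52.0 ± 7.00 to 25.8 ± 9.73 FPKM (SD, n = 6; -1.07), and Mrpl30 had the largest rise (0.45, limma adjusted p = 0.0033). In COM+Met, Mrpl12 was higher than in COM (0.55, limma adjusted p = 0.040, lost under 10 of 25 alternatives), and Mrpl53 was higher than in NC (1.30, limma adjusted p = 0.00027) while Mrpl33 was lower (-0.93).

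**Figure D5:**
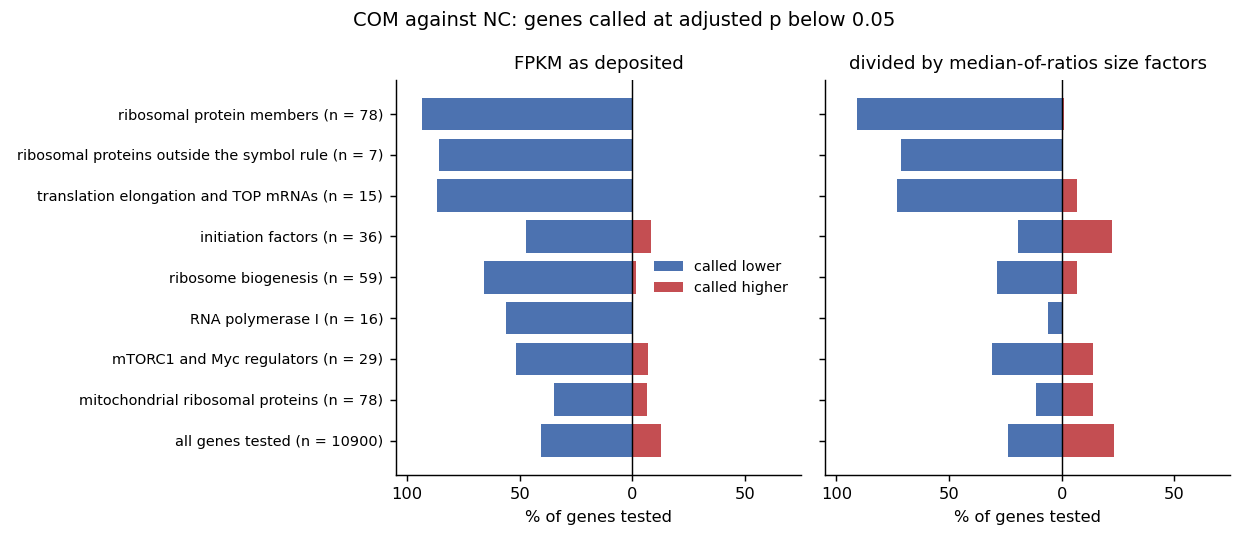
Genes called lower (left of 0) and higher (right of 0) in COM against NC at an adjusted p below 0.05 from limma, as % of the genes tested in each list, with all 10900 genes at the bottom. On the values as deposited 93.6% of the ribosomal protein members and 40.6% of all genes are lower, and with median-of-ratios size factors 91.0% and 23.7%.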

How the data were processed

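The authors deposited FPKM values for 18 TruSeq RNA libraries of BMDMs in 1 table, with a column for each sample. Per the labels, Bowtie 0.12.2 was the aligner named in the submitters' processing notes, together with mm8 and mm9. How FPKM was calculated, with which annotation and filters, and how multiply mapped reads were treated is not given in the sources used here. All 18 columns were used and 0 were left out. The table holds no coordinates. Promoter sequences and their positions are those of RefSeq on GRCm38.p6, and GC content and transcript length came from GENCODE M21. FPKM gives no read depth, so no counting interval could be given.

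Values were transformed to log2(FPKM + 1). A gene entered a comparison when its mean over those samples reached 1 FPKM, and was tested by limma 3.58.1 (lmFit and trended eBayes, R 4.3.3), each comparison on its own 12 samples, with Benjamini-Hochberg adjustment over all genes tested. The procedure was tested on simulated data. Summaries used Python 3.11.15 with pandas 2.3.3 and numpy 2.4.6, and figures matplotlib 3.10.9. The members, gene lists and alternatives were chosen with earlier results of these data known. Named with values were the 4 members of highest mean FPKM, the 3 largest rises and falls among called members in each comparison, Rplp0, Rplp1, Rplp2 and Rpsa, 6 pairs of paralogs, 7 members with roles beside the ribosome (Rpl5, Rpl11, Rps3, Rpl13a, Rps6, Rps19 and Rpl22), and the largest called rise and fall of each list in each comparison. Alternatives were pseudocounts of 0.1 and 5, no filter, a filter of 5 FPKM, rescaling to the same sum (TPM) or the same sum over genes that are not members, median-of-ratios size factors, quantile normalisation, a block for replicate number, a joint fit of the 18 samples, sample weights, spline correction (4 degrees of freedom) for GC content and length, each sample left out in turn, NC-5 and NC-6 left out, and COM-4 to COM-6 left out. Running them on the gene lists was a choice made after seeing the data. Results for some genes are not reported here.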

Additional observations from a re-analysis of the deposited data

Results flagged for a closer look

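In 99 groups of 6 samples, 5 values stood further from the others than Dixon's critical value for 6 samples allows, where chance flags about 1 group in 20. In COM-6, mitochondrially encoded genes took 11.6% of the summed FPKM, and Rplp1 had 74.5 FPKM, below every other COM sample. In NC-5, the members took 5.56% of the summed FPKM, and Rpl41 had 562 FPKM, in both cases below the other NC samples. Rpl10 in COM+Met-6, at 371 FPKM, lay above the other COM+Met samples.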

How the results depend on the processing

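Between COM and NC the fall of the members kept its direction under every alternative run, with 72 to 75 members called lower when samples were left out in turn, 51 to 67 of them at 2-fold, and a median of -1.40 to -1.12. The share of all genes called lower then ran from 36% without NC-4 to 44.2% without COM-6. The number called higher was 1 with median-of-ratios size factors, with sample weights and without COM-4 to COM-6, and the number lower at 2-fold was 38, 36 and 29. Of all genes, 23.5%, 22.1% and 17.7% were called higher under these settings. The counts at 2-fold under alternatives, here and below, are given without the shares of all genes. Rps27l became 0.0709 and Rpl22 0.0769 with the size factors. Against COM, the members called higher in COM+Met numbered 1 with no filter, 10 with size factors, 7 with quantile normalisation, 7 with all 18 samples, 1 with GC content and length removed (and 1 lower, median 0.2054), 11 with sample weights (and 20 lower, median -0.1075) and 7 without COM-4 to COM-6 (and 28 lower, median -0.128). Beside these, 3.34% of all genes were higher with no filter, 8.51% with size factors, 9.2% with quantile normalisation and 7.75% with all 18 samples. With GC content and length removed, 8.16% of all genes were higher and 8.14% lower. Of all genes, 19.7% were higher and 44.8% lower with sample weights, and 17.8% and 43.4% without COM-4 to COM-6. Leaving samples out in turn gave 1 to 8 members higher and 0 to 1 lower, the 8 without COM-6, where 10.6% of all genes were higher. With sample weights the log2 fold change turned for Rplp2 (-0.1272), Rpsa (-0.2566), Rpl3 (-0.2806), Rpl10 (-0.0179), Rpl36al (-0.121), Rps4x (-0.0303), Rpl11 (-0.1865), Rps3 (-0.1642), Rpl13a (-0.1393), Rps6 (-0.1716), Rps19 (-0.3463) and Rpl18 (-0.3806). Without COM-4 to COM-6 it turned for Rplp2 (-0.1245), Rpsa (-0.2802), Rpl3 (-0.3334), Rpl10 (-0.0363), Rps27 (-0.1315), Rpl36al (-0.1356), Rps4x (-0.0585), Rpl11 (-0.2269), Rps3 (-0.1743), Rpl13a (-0.1932), Rps6 (-0.1965), Rps19 (-0.3927) and Rpl18 (-0.3682), and with GC content and length removed for Rps6 (-0.0283). Leaving samples out in turn also turned Rpl22 (-0.1664 to 0.0386), Rps6 (-0.0122 to 0.1241), Rpl11 (-0.0375 to 0.3609), Rps19 (-0.1348 to 0.6039), Rpl18 (-0.1861 to 0.3354), Rps27 (-0.1187 to 0.6516) and Rps3 (-0.0275 to 0.3057). Between COM+Met and NC the median was -1.0801 with the same sum over genes that are not members, -0.6746 with size factors and -0.9229 with quantile normalisation, 1 member was called higher with size factors and with quantile normalisation, and 10 were lower at 2-fold with size factors. Of all genes, 36% were called higher with size factors and 34.8% with quantile normalisation. Rpl22 became 0.0065 and Rpl24 0.0708 with size factors. The causes were not tested.

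Among the named members, 628 values kept their call and direction in COM against NC, 538 in COM+Met against COM and 604 in COM+Met against NC. The others were 11 lost calls, 9 gained and 2 turned in the first comparison, 9, 19 and 34 in the second and 12, 7 and 2 in the third. Same-numbered samples did not deviate together (correlations of -0.22 to 0.057). With the sets seen within COM, this cannot tell whether same-numbered samples share an animal or culture. With the replicate number as a block, 72 members were lower in COM, 1 was higher in COM+Met against COM, and 75 were lower in COM+Met against NC. The same calls were made for 36.2%, 2.78% and 54.6% of all genes. Depth is unknown, and FPKM shows shares and not amounts of RNA per cell.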
